A study of Schizosaccharomyces pombe with 6 samples.

Results

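The transcripts described here are ste11, mei2, pka1 and cgs1, which sit at the point where the fission yeast Schizosaccharomyces pombe leaves vegetative growth for mating and meiosis. The genes were picked by annotated symbol, and each was represented by 1 probe set, giving 4 genes of the 2896 S. pombe genes that had a probe set of their own. They were ste11 (SPBC32C12.02), mei2 (SPAC27D7.03C), pka1 (SPBC106.10) and cgs1 (SPAC8C9.03). The array also carries a probe set for STE11 of Saccharomyces cerevisiae, which is an unrelated kinase gene and was not used.

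In fission yeast, Ste11 is an HMG-box transcription factor that switches on mating-type, pheromone and early meiotic genes, its own gene among them. Protein kinase A holds this switch off in rich medium: glucose activates a heterotrimeric G protein and adenylate cyclase, cAMP binds Cgs1, the regulatory subunit, and Pka1, the catalytic subunit, is set free to restrain Rst2, the zinc-finger factor that activates ste11. Mei2 is an RNA-binding protein that drives entry into meiosis. Its gene is a target of Ste11, and the Pat1 kinase keeps the Mei2 protein inactive in growing cells. The arrays measured RNA only, so they hold nothing on phosphorylation or on the amount of protein.

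Each sample was a mixture of the h+ strain YHL6381 and the h- strain SPQ-01, the P and M mating types, each first brought to an OD600 of 5.0 in YEPD at 30 °C. Equal parts were then kept for 90 min in fresh YEPD (3 arrays) or in YEPME (3 arrays), and the study used the comparison to look at sexual flocculation, in which P and M cells clump together. The sample labels pair the code YSD with YEPD and YSM with YEPME, the design text pairs them the other way, and the strain label of the YEPME samples names a diploid; groups here follow the medium given for each sample, and every sign between media would turn under the other pairing. All strains carried whatever alleles YHL6381 and SPQ-01 have, which were not given in the sources used here. All 5 measured P cell markers and all 8 measured M cell markers lay above the background limit on every array. So did nearly every gene, as 2863 of the 2896 had a mean above it in either medium. The markers passing it therefore cannot show that both mating types were present.

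Values are log2 RMA values, a logarithmic intensity scale on which a difference of 1 is a 2-fold change. The arrays of replicate 1 stood apart from the other 4 in both media. Pairs of arrays across this divide correlated at 0.976 to 0.981 over all probe sets, against 0.994 within replicate 1 and 0.998 to 0.999 among the arrays of replicates 2 and 3. The background limit, the 95th percentile of the S. cerevisiae probe sets, reached 5.60 (YEPD) and 5.59 (YEPME) in replicate 1 but no more than 4.81 elsewhere. All 4 genes lay at least 2.32 above it on every array. Results are therefore given for each replicate pair, within replicates 2 and 3, and over all 6 arrays. The number of arrays limits the precision, and nothing in the labels beyond the word biological says how independent the cultures were.

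ste11 and cgs1 were higher in YEPME in all 3 pairs, mei2 was far lower in YEPME in replicate 1 and slightly higher in the other pairs, and pka1 had no common direction. Over all 6 arrays with no block, limma put 0 of the 4 genes past an adjusted p of 0.05, as it did for all 2896 genes (0%); the lowest unadjusted p among the 4 was 0.182, and 32 genes of the whole table were under an unadjusted 0.05. With replicate 1 set apart as a block, 0 of the 4 passed against 2.07% of all genes, although ste11 and cgs1 had unadjusted p-values of 0.0117 and 0.0321. In that fit 478 of the 2896 genes were under an unadjusted 0.05. Within replicates 2 and 3, 2 of the 4 genes (ste11 and cgs1) were called higher, against 6.91% of all genes called higher there. The 3 YEPME arrays lay wholly above or below the 3 YEPD arrays for 0 of the 4 genes (5.70% of all genes). The YEPME array was the higher one in all 3 pairs for 2 of the 4 (16.7% of all genes).

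**Figure D1:**
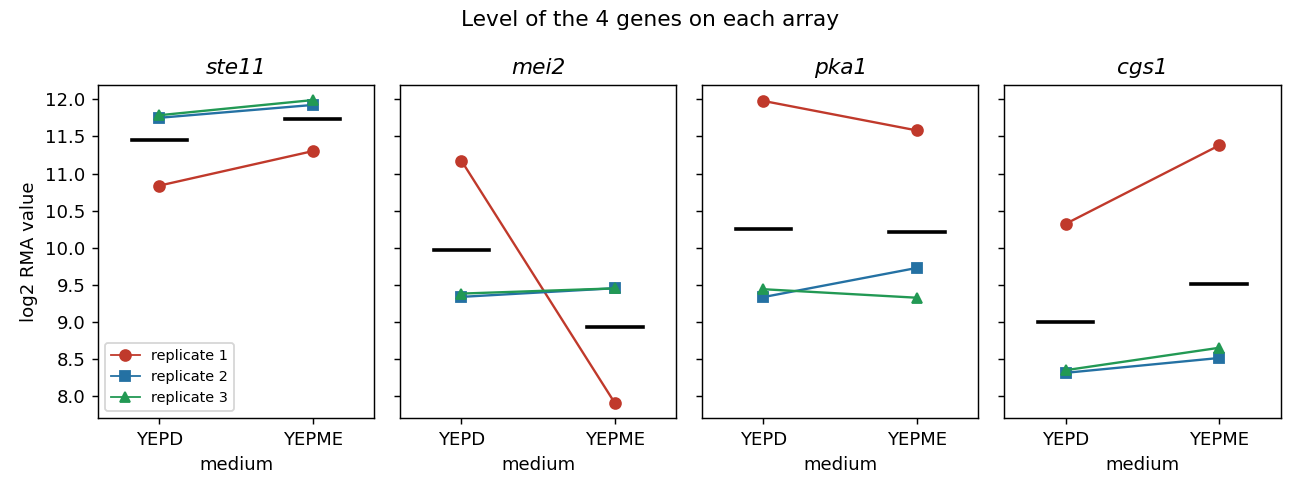
Log2 RMA value (vertical axis) of each gene on the YEPD and YEPME arrays; lines join the arrays of 1 replicate number and black bars are means of 3 arrays. The replicate 1 lines run below the others for ste11, above them for pka1 and cgs1, and cross them for mei2, from 11.17 to 7.91.

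ste11 rose modestly in YEPME. Its log2 level was 10.84, 11.75 and 11.79 in YEPD replicates 1, 2 and 3, and 11.30, 11.92 and 11.99 in YEPME. The YEPME array was the higher one in every pair, by 0.47, 0.17 and 0.20, but the groups overlapped because both replicate 1 arrays lay below all 4 others. Within replicates 2 and 3 the groups did not overlap and ste11 rose by 0.19 ± 0.04 (SE), a 1.14-fold change (limma, adjusted p = 0.0373). Such a separation of 2 arrays from 2 in the higher direction was common, holding for 3 of the 4 genes (all but pka1) and for 32.5% of all genes. That call was lost without YEPD replicate 2 (adjusted p = 0.240), YEPD replicate 3 (0.183) or YEPME replicate 3 (0.0784), with differences of 0.16 to 0.22 over the 4 fits that each left out an array. Over all 6 arrays the means were 11.46 ± 0.54 in YEPD and 11.74 ± 0.38 in YEPME (SD, n = 3), a difference of 0.28 with a 95% confidence interval of -0.54 to 1.11 and an adjusted limma p of 0.999.

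The difference between media for ste11 was larger in replicate 1 than in replicates 2 and 3, by 0.28 ± 0.07 (limma interaction, adjusted p = 0.0267). Of the 4 genes, 3 passed this interaction test (ste11, mei2 and cgs1), against 46.4% of all genes, so passing it was common. Replicate 1 has 1 array per medium, and the test assumes that these arrays vary as the others do. Without YEPD replicate 2 or 3 the ste11 interaction no longer passed (adjusted p = 0.0852 and 0.105). Its level in replicate 1 was lower than in replicates 2 and 3 by -0.79 ± 0.08 (adjusted p = 6.19e-04).

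mei2 gave the largest fall of any gene in replicate 1 and almost no difference in the other pairs. Its log2 level was 11.17, 9.34 and 9.38 in YEPD replicates 1, 2 and 3, and 7.91, 9.45 and 9.45 in YEPME. The 4 arrays of replicates 2 and 3 lay within 0.12 of each other, and the replicate 1 arrays lay on opposite sides of them, 1.81 above in YEPD and -1.55 from them in YEPME. The pair difference was -3.27 in replicate 1, where mei2 was 9.62-fold lower in YEPME and 0 of the other genes had a lower difference. In replicates 2 and 3 it was 0.12 and 0.07. Within those replicates the difference was 0.09 ± 0.03, with a 95% confidence interval of 0.0071 to 0.18, and did not pass limma (adjusted p = 0.125).

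The departure of replicate 1 was tested for mei2 as an interaction of -3.36 ± 0.06 (limma, adjusted p = 7.22e-05), and 3 genes of the table had a larger one in absolute value. It lay between -3.38 and -3.34 when any 1 array of replicates 2 and 3 was left out. Over all 6 arrays the means were 9.96 ± 1.05 in YEPD and 8.94 ± 0.89 in YEPME (SD, n = 3), a difference of -1.03 with a 95% confidence interval of -2.70 to 0.65. It did not pass limma (adjusted p = 0.999) and rested on replicate 1, without which the sign turned, to 0.09.

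Most markers of M cells, like mei2, were lower in YEPME in replicate 1. The summed linear level of the 8 M cell markers was 13.82 on the log2 scale on the YEPD array of replicate 1 and 12.35 on its YEPME array, against 11.96 to 12.20 on the other 4. The largest part on that YEPD array was mfm2, at 13.10. On the YEPME array of replicate 1, mei2 (7.91) lay below all arrays of replicates 2 and 3. The M cell sum there lay above them all. In replicate 1, 1 of the 8 (mam3, by 0.36) was higher in YEPME, against 44.4% of all genes. The 5 P cell markers summed to 12.40 to 12.68 on all arrays, mostly from sxa1, at 12.09 to 12.29, so the sum says little about the others. Of these 5, 4 were higher in YEPME in replicate 1, sxa1 by only 0.02, and map1 had a difference of -0.43. In mixtures such as these, fewer cells of a type and less RNA per cell cannot be told apart. The part of the M cell markers in the mei2 difference was not tested.

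**Figure D2:**
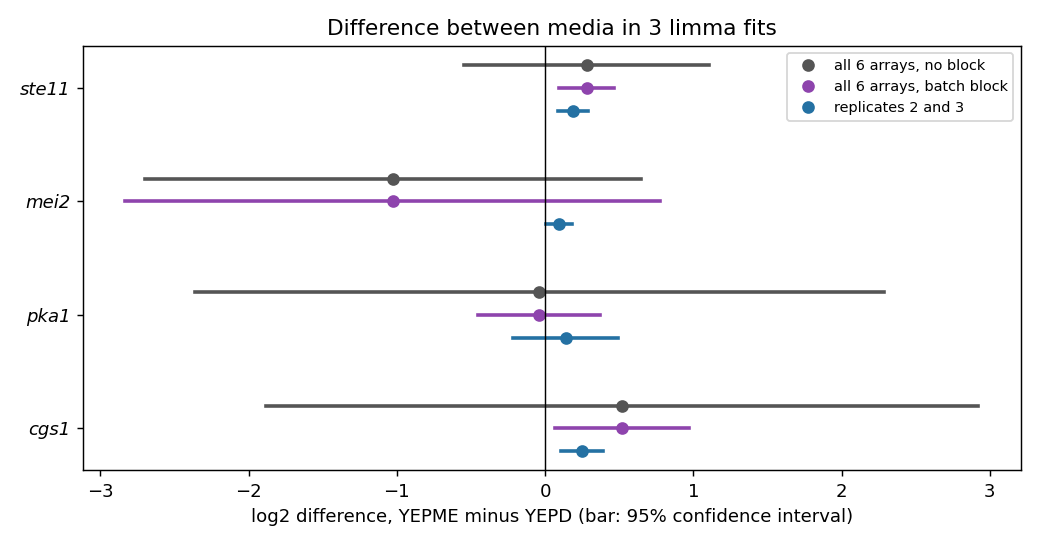
Log2 difference, YEPME minus YEPD (horizontal axis), of each gene in 3 limma fits; points are estimates and bars 95% confidence intervals. Within replicates 2 and 3 the interval for ste11 runs from 0.09 to 0.29 and that for cgs1 from 0.11 to 0.39, while the intervals with no block cross 0 for all 4 genes.

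cgs1, for the subunit that holds Pka1 inactive until cAMP binds, was higher in YEPME in every pair. Its log2 level was 10.32, 8.31 and 8.35 in YEPD replicates 1, 2 and 3, and 11.38, 8.51 and 8.65 in YEPME. The pair differences were 1.06 (2.08-fold), 0.20 and 0.30. Within replicates 2 and 3 the groups did not overlap and cgs1 rose by 0.25 ± 0.05 (limma, adjusted p = 0.0442). As for ste11, the call was lost without YEPD replicate 2 (adjusted p = 0.241), YEPD replicate 3 (0.192) or YEPME replicate 3 (0.0598).

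The cgs1 difference was larger in replicate 1 by 0.81 ± 0.09 (limma interaction, adjusted p = 0.00412), and it stayed between 0.74 and 0.87 when an array of replicates 2 and 3 was left out. Over all 6 arrays the means were 9.00 ± 1.15 in YEPD and 9.52 ± 1.62 in YEPME (SD, n = 3), a difference of 0.52 with a 95% confidence interval of -1.88 to 2.92 (limma, adjusted p = 0.999).

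pka1, for the catalytic subunit, showed no common direction between media. Its log2 level was 11.98, 9.34 and 9.44 in YEPD replicates 1, 2 and 3, and 11.58, 9.73 and 9.33 in YEPME. The pair differences were -0.40, 0.39 and -0.11, and the groups overlapped within replicates 2 and 3 as well. There the difference was 0.14 ± 0.14, with a 95% confidence interval of -0.22 to 0.49 (limma, adjusted p = 0.522). Without YEPME replicate 3, pka1 passed at 0.34 (adjusted p = 0.0438), and without YEPME replicate 2 the estimate was -0.06, so YEPME replicate 2 carried the higher value. The interaction of -0.54 ± 0.24 did not pass (adjusted p = 0.127). It passed once replicate number was blocked (adjusted p = 0.0356), and without YEPME replicate 2 (-0.34, adjusted p = 0.0428) or YEPME replicate 3 (-0.74, adjusted p = 0.00801).

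Transcripts of both subunits of protein kinase A were far higher in replicate 1 than in the other replicates, whatever the medium. Whether all arrays were normalized as one set is not known, and the part of array processing in this difference was not tested. The level difference was 2.32 ± 0.17 for pka1, a 5.00-fold change, and 2.39 ± 0.19 for cgs1, a 5.25-fold change (limma, adjusted p = 2.62e-04 and 3.20e-04). The lower of the 2 replicate 1 arrays exceeded the highest of the other 4 by 1.85 for pka1 and by 1.67 for cgs1. Of the 4 genes, 3 differed in level between replicate 1 and the rest, close to the 71.0% of all genes that did. The size was less common, since 34 of the 2896 genes had a larger absolute level difference than cgs1 and 42 a larger one than pka1. ste11 lay on the other side, and mei2 had a difference of 0.13 ± 0.75 (adjusted p = 0.885) that averages 2 opposite values.

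Like cgs1, and unlike pka1, some further genes of the cAMP pathway were called higher in YEPME within replicates 2 and 3. Of the 13 listed genes, all measured, 4 were called higher and 0 lower in YEPME within replicates 2 and 3 (6.91% and 8.70% of all genes), with a median difference of 0.11 against 0.00 over all genes. Besides cgs1 these were fbp1, for fructose-1,6-bisphosphatase, a gluconeogenic enzyme whose gene protein kinase A represses (0.38 ± 0.04, adjusted p = 0.00842), gpa2, for the G protein alpha subunit of the glucose signal (0.27 ± 0.03, adjusted p = 0.00861), and git1, which acts upstream of adenylate cyclase (0.16 ± 0.03, adjusted p = 0.0434). Without YEPD replicate 2 or without YEPD replicate 3, 0 of the 13 were called. rst2, the activator of ste11, and cyr1, for adenylate cyclase, had differences of 0.10 ± 0.04 and 0.04 ± 0.03 (adjusted p = 0.134 and 0.426). With replicate 1 as a block, 0 of the 13 passed limma and 5 had an unadjusted p under 0.05, against 478 of all 2896 genes.

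In replicate 1 the same list spread from -0.40 for pka1 to 2.15 for fbp1. The 3 subunits of the G protein had pair differences of 1.18 (gpa2, alpha), 0.91 (git5, beta) and 0.88 (git11, gamma). cgs2, for the phosphodiesterase that breaks down cAMP, had 1.11 there but -0.21 and 0.14 in replicates 2 and 3. The difference departed upward in replicate 1 for 6 of the 13 genes (limma interaction, 19.0% of all genes), namely cgs1, gpa2, git5, git11, cgs2 and fbp1, and downward for 2 (27.4% of all genes), cap1, for the adenylate cyclase-associated protein, and rst2. The 2 downward calls were lost without YEPD replicate 2 or without YEPD replicate 3.

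**Figure D3:**
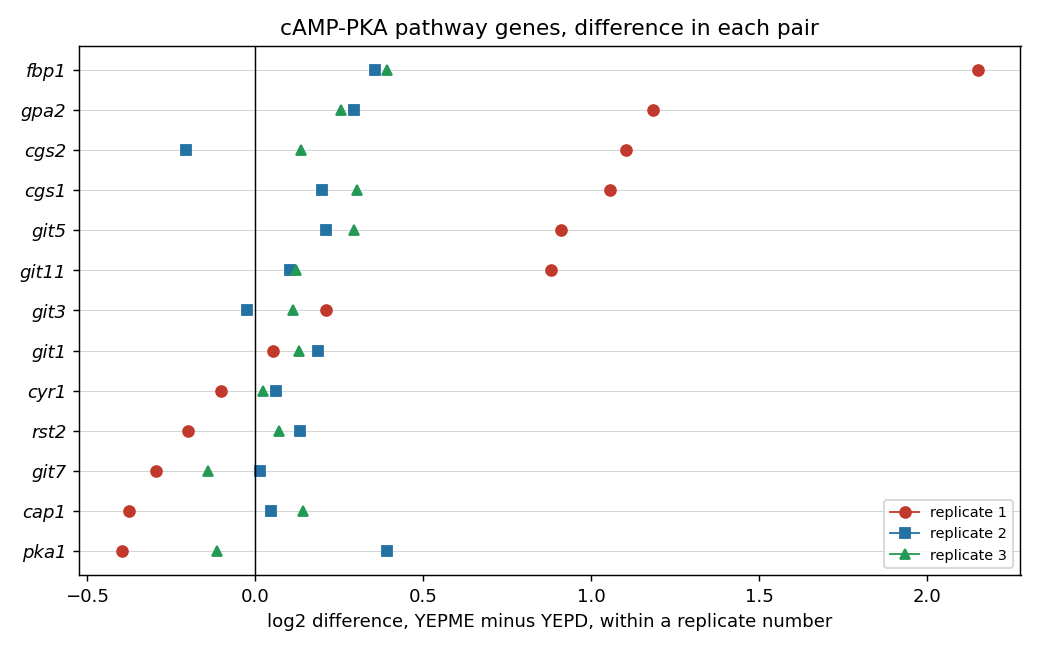
Log2 difference, YEPME minus YEPD (horizontal axis), of the 13 cAMP pathway genes in each replicate pair, ordered by replicate 1. In replicate 1, 6 genes lie between 0.88 and 2.15 and pka1 is lowest at -0.40.

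The level of this pathway also set replicate 1 apart. Of the 13 genes, 8 were higher and 1 was lower there than in replicates 2 and 3 (35.0% and 36.0% of all genes), and the list median was 0.73 against 0.00 over all genes. After cgs1 and pka1 the largest differences were those of git5 (2.25 ± 0.17) and gpa2 (2.13 ± 0.21), both G protein subunits. git7, which is needed for cAMP signalling in glucose, was the lower gene (-0.62 ± 0.08). fbp1 had similar levels in the YEPD replicates, 9.18, 9.36 and 9.41, and stood out in YEPME replicate 1 with 11.34 against 9.72 and 9.80.

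**Figure D4:**
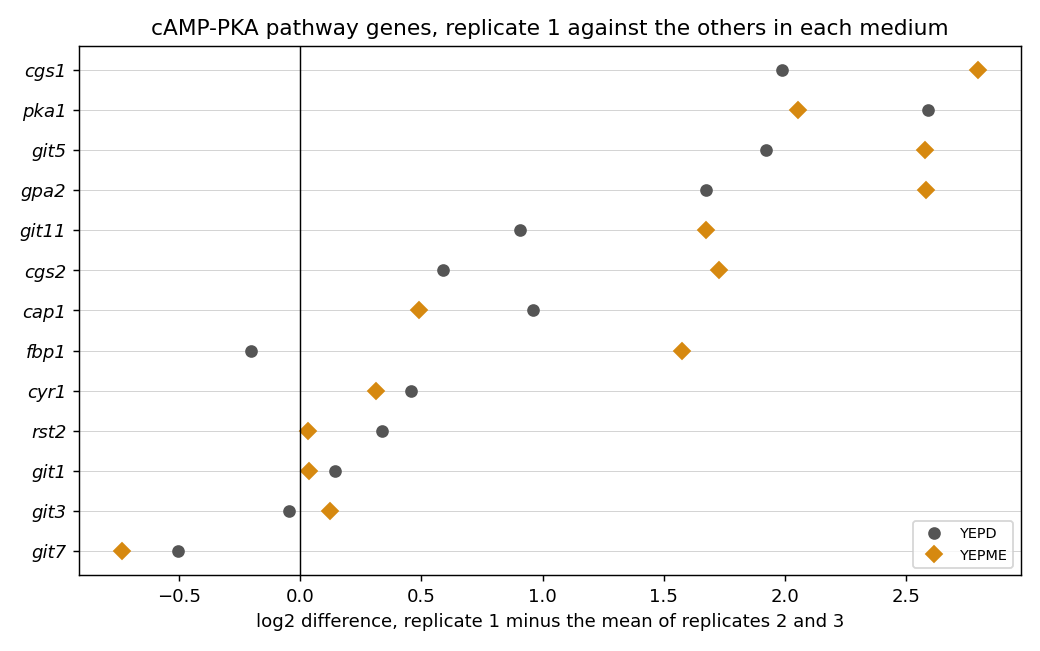
Log2 difference of replicate 1 from the mean of replicates 2 and 3 (horizontal axis) for the 13 cAMP pathway genes, with YEPD as circles and YEPME as diamonds. cgs1 (1.99 in YEPD and 2.80 in YEPME) and pka1 (2.59 and 2.05) lie far to the right in both media, whereas fbp1 does so in YEPME.

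Targets of Ste11 were compared with ste11 and mei2 themselves, which belong to the list of 22, of which 20 were measured. In YEPME, 12 of the 20 (60.0%), ste11 among them, were called higher and 0 lower within replicates 2 and 3, against 6.91% and 8.70% of all genes. The list was chosen with earlier results of these data known. The list median was 0.31. The largest were mfm2, an M-factor precursor gene (0.73 ± 0.05), map4, the P cell adhesin gene (0.59 ± 0.05), rgs1, for a regulator of G protein signalling (0.55 ± 0.07), and map1, for a mating-type transcription factor of P cells (0.49 ± 0.04), with adjusted limma p-values from 0.00388 to 0.00919. Their differences exceeded that of ste11 (0.19), while mei2 (0.09) was among the 8 that did not pass. mam1, the M-factor transporter gene, and sxa2, for a peptidase that degrades P-factor, also did not pass (0.13 ± 0.05 and 0.05 ± 0.04). Without YEPD replicate 2 or without YEPD replicate 3, 0 of the 20 were called higher, and with replicate 1 as a block 3 of the 20 were (0.760% of all genes). The replicate number as a block, in the fit to replicates 2 and 3, left 12 called higher and added rep1 as lower (-0.20, adjusted p = 0.0302). That fit called 695 of all 2896 genes, against 452 without the block. The count of targets called lower changed in 3 alternatives, that block among them.

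In replicate 1, ste11 and most of these targets had opposite signs, and most genes of the table also fell. The pair difference was above 0 for 7 of the 20 (35.0%, against 44.4% of all genes), ste11 among them at 0.47. The list median was -0.59, against -0.04 over all genes. A probe set for 1 M-factor precursor gene may also bind RNA of its near-identical copies. The lowest were mei2 (-3.27), mfm2 (-2.41), mfm1, another M-factor precursor gene (-2.06), and spk1, for the MAP kinase of the pheromone pathway (-1.54). A negative value in replicate 1 with positive values in both other pairs was seen for 11 of the 20 (55.0%), mei2 included, and for 21.4% of all genes. The interaction test placed 13 of the 20 lower and 3 higher in replicate 1 (27.4% and 19.0% of all genes). ste11 was 1 of the 3, beside rep1, for an activator of early meiotic gene expression (1.08, with an adjusted p of 0.00883), and fus1, a formin gene for cell fusion (0.38, adjusted p = 0.0365). Without YEPD replicate 2 or without YEPD replicate 3, 1 of the 20 was placed higher. The list holds 7 of the M cell markers, whose summed level differed between the replicate 1 arrays as given above.

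**Figure D5:**
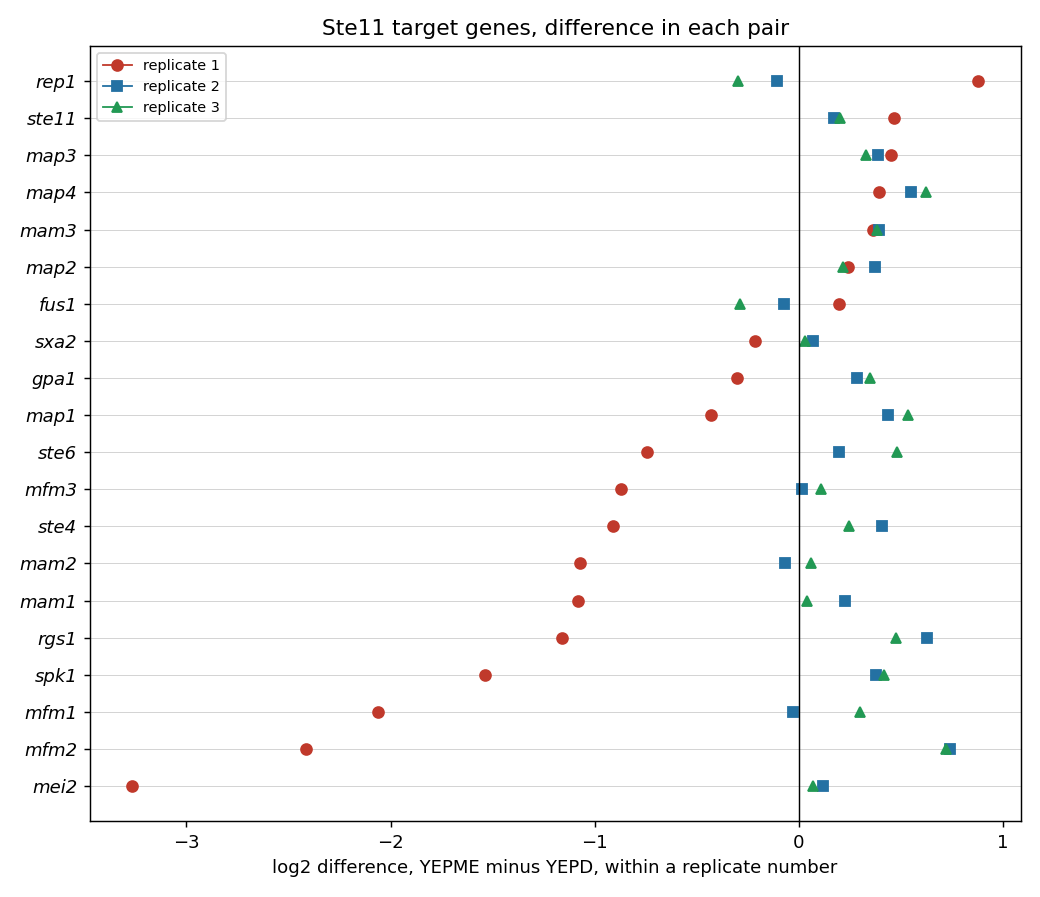
Log2 difference, YEPME minus YEPD (horizontal axis), of the 20 measured Ste11 target genes in each replicate pair, ordered by replicate 1. Replicate 1 runs from -3.27 for mei2 to 0.88 for rep1, while replicates 2 and 3 lie between -0.30 and 0.74.

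Calls among the listed genes of the TOR pathway and among the regulators of ste11 and Mei2 within replicates 2 and 3 were no more common than among all genes. Of 16 genes of the TOR pathway, 1 was called higher within replicates 2 and 3 (6.25%, against 6.91% of all genes) and 0 lower (8.70% of all genes). It was sin1, for a subunit of TOR complex 2 (0.23 ± 0.04, adjusted p = 0.0239), with pair differences of 0.28, 0.22 and 0.24. The call for sin1 was lost without YEPD replicate 2, YEPD replicate 3 or YEPME replicate 3. rhb1, for the GTPase that activates TOR, and bit61, another TOR complex 2 subunit, had differences of 0.02 ± 0.04 and -0.05 ± 0.04. The list median was 0.03, and 1 of the 16 had an unadjusted p under 0.05, against 994 of all 2896 genes.

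Of 19 listed regulators of ste11, which include rst2 of the cAMP pathway, 0 were called higher and 1 lower within replicates 2 and 3 by limma (6.91% and 8.70% of all genes). An unadjusted p under 0.05 was found for 6 of the 19, a share no higher than that of the whole table (994 of 2896 genes). The list median was 0.00. pac1, for an RNase III that inhibits mating when overproduced, fell by 0.20 ± 0.04 on the log2 scale (adjusted p = 0.0291), while in replicate 1 it differed by 0.44. That call was lost without any of YEPD replicate 2, YEPD replicate 3 and YEPME replicate 2. With the replicate number as a block 3 were called lower, pac1, spt8 and sum3, in a fit that called 695 of all 2896 genes, against 452 without the block. With arrays centred on their median, or with quantile normalization, 1 regulator was called higher. Over all alternatives tried, the count called higher changed in 3 and the count called lower in 6. rad24 and rad25, whose 14-3-3 proteins bind Ste11, had differences of 0.05 ± 0.03 and 0.13 ± 0.03 (adjusted p = 0.319 and 0.0703). atf1 and pcr1, for the paired stress transcription factors that act on ste11, had 0.08 ± 0.06 and 0.07 ± 0.07; the pcr1 difference in replicate 1 was 1.61. spt8, sum3, atf1 and pcr1 were chosen for mention after their values were seen.

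Of the 9 measured regulators and partners of Mei2, 0 were called in either direction within replicates 2 and 3 by limma (15.6% of all genes). An unadjusted p under 0.05 was found for 2 of the 9, against 994 of all 2896 genes. rhp6, for the ubiquitin-conjugating enzyme that acts with Ubr1 on Mei2, had a difference of 0.06 ± 0.03 and pab2, for a nuclear poly(A)-binding protein of meiotic RNA removal, 0.09 ± 0.04 (adjusted p = 0.252 and 0.194). Without YEPME replicate 2, 1 of the 9 was called lower, and rrp6 was called lower with the replicate number as a block. pat1, the kinase gene named above, had pair differences of 0.42, -0.09 and 0.00. mei3, whose product inhibits Pat1 in diploid cells, lay above the background limit on 2 of the 6 arrays, those of replicate 2, so its differences have no firm size. rrp6, pat1 and mei3 were chosen for mention after their values were seen.

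All 4 genes spanned at least 1 on the log2 scale over the 6 arrays, and their nearest neighbours were sought by the root mean square distance between centred profiles over those 6 arrays. The nearest to cgs1 was gti1, which induces gluconate transport, at 0.05, followed by the G protein subunit genes git5 (0.09) and gpa2 (0.14), against a median of 1.18 over all genes. Their pair differences in replicate 1 were 1.05, 0.91 and 1.18, beside 1.06 for cgs1. For pka1 the nearest were mug35 (0.12), gpi12, for an enzyme of GPI anchor synthesis (0.12), and etr1, for a mitochondrial enoyl reductase (0.16), with a median of 1.12. For ste11 they were bgl2, a cell wall glucanase gene (0.07), sfi1, for a spindle pole body protein (0.07), and qrs1, for glutaminyl-tRNA synthetase (0.08), with a median of 0.44.

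mei2 had no close neighbour. The nearest were mfm1 at 0.52, isp4, an oligopeptide transporter gene, at 0.58 and ppk33, for a protein kinase, at 0.58, against a median of 0.97. Their pair differences in replicate 1 were -2.06, -1.27 and -1.26, all smaller in size than the -3.27 of mei2. The profiles of all these genes hold the departure of replicate 1, and the distances are given as a description of the 6 arrays.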

How the data were processed

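Biotin-labelled cRNA from total RNA of 6 samples was hybridised to Affymetrix arrays. The deposited values are log2 intensities per probe set, made by the authors with RMA and Partek per the submitters' processing notes; no version or setting is given in the sources used here, nor whether all arrays were normalized as one set. Probe sets were named from GEO's platform annotation and matched by gene number to RefSeq assembly ASM294v3, used for names only. For the 14 genes with several probe sets, the one with the highest mean stood for the gene.

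Fits used limma 3.58.1 in R 4.3.3 (lmFit and eBayes, two-sided, Benjamini-Hochberg over all 2896 genes, threshold 0.05), and the code was tested on simulated data. Same-numbered arrays deviated together from their medium means across genes (correlations of 0.853, 0.836 and 0.836), which meets the rule used here for pairing; unlike numbers 2 and 3 gave 0.816, so most of the shared deviation sets replicate 1 apart. The replicate block within replicates 2 and 3 and in the interaction fit was chosen after seeing the data. Values of replicate 1 have up to 10 digits and the others up to 6, and the arrays split likewise, hence the fits with replicate 1 apart. The 4 genes, the gene lists and the fits were chosen with earlier results of these data known.

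Named were the 4 genes, up to 4 further genes per list past the test within replicates 2 and 3, up to 2 of the highest level not past it, and 3 nearest profiles per gene. Alternatives were blocks, array centring, quantile normalization, a filter on dim genes (2870 left), the mean of probe sets, eBayes with trend and robust settings, and leaving out arrays. Of the listed genes, erh1, mat1-Pc and mat1-Mc were not analysed here.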

Additional observations from a re-analysis of the deposited data

Results flagged for a closer look

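The media difference departed between replicate 1 and replicates 2 and 3, by a limma interaction test, for 3 of the 4 genes. The departure was 0.28 for ste11, -3.36 for mei2 and 0.81 for cgs1 on the log2 scale. Replicate 1 is a single pair, and 46.4% of all genes passed the same test.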

How the results depend on the processing

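Under the alternatives that kept all arrays, 95 values of the 4 genes kept their direction and their side of the threshold, and 1, the pka1 interaction of -0.54, passed with the replicate block (adjusted p = 0.0356). Counts over all genes moved: over all 6 arrays from 0 to 60 with replicate 1 as a block (batch block) and stayed at 0 with the replicate block, and within replicates 2 and 3 from 452 to 753 with trend and robust settings. Over all 6 arrays the replicate block gave ste11 0.28 (adjusted p = 0.416) and cgs1 0.52 (adjusted p = 0.475). Within replicates 2 and 3, where that block leaves 1 residual degree of freedom, it called 695 genes and kept the calls of ste11 (adjusted p = 0.0132) and cgs1 (adjusted p = 0.00573). Leaving out arrays moved the count over all 6 arrays between 0 and 452, within replicates 2 and 3 between 19 and 483, and for the interaction between 592 and 1429. Over all 6 arrays the leave-out values ran from -0.030 to 0.50 for ste11, -1.60 to 0.093 for mei2, -0.72 to 0.82 for pka1 and -0.41 to 1.18 for cgs1. Within replicates 2 and 3 they ran from 0.16 to 0.22 for ste11, -0.062 to 0.34 for pka1 and 0.18 to 0.32 for cgs1. The interaction ran from 0.24 to 0.31 for ste11 and -0.74 to -0.34 for pka1, and the level of mei2 in replicate 1 from -1.55 to 1.81. A fit without an array has fewer samples, and the lone array of a medium was assumed to vary like the others. The cause of the other moves was not tested. Signal over background did not limit the 4 genes.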
